A study of Mus musculus with 15 samples.

Results

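The complement and coagulation genes are the 41 genes on the array that encode plasma proteins of innate defence and blood clotting, with the membrane starter of clotting, tissue factor. They were chosen by name: every array probe of the expression set whose annotated symbol is one of the 41 was taken, which gave 55 of 55681 probes and 41 of 24336 gene symbols. Each gene was read from its probe with the highest mean signal. Complement is a cascade of plasma proteases that starts from C1q bound to antibody (classical pathway), from mannose-binding lectin on sugars (lectin pathway) or from C3 itself (alternative pathway), and ends in a pore of terminal components. Coagulation is a second cascade of proteases that ends when thrombin cuts fibrinogen to fibrin, held in check by anticoagulant proteins and undone by plasmin. Hepatocytes make most of these proteins, many of them as acute phase proteins, whereas C1q is known as a product of macrophages.

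RNA was measured in 15 whole liver tumors of C57BL/6J mice, in 3 groups of 5: hepatocellular carcinoma (HCC) of p53f/f mice, which carry floxed Trp53 and serve as controls, HCC of p53LKO mice, in which Trp53 was deleted in the liver only, and intrahepatic cholangiocarcinoma (ICC) of p53LKO mice. All 3 groups had received carbon tetrachloride (CCl4, 0.5 µl per g body weight in olive oil) for 16 weeks from an age of 6 weeks, and all mice were male. The paper reports that tumors formed later in p53f/f than in p53LKO mice. Age at tumor collection may thus differ between the HCC groups and was not taken into account. The promoter that drives the deletion is not given in the sources used here, and no untreated or non-tumor liver was measured on these arrays. Mouse 3717 gave 2 of the 5 p53f/f tumors, and 4 mice (3731, 3733, 3976 and 5283) gave both an HCC and an ICC. Each level is a log2 signal relative to its array (75th percentile set to 0), so levels compare arrays for 1 probe and not probes with each other. Values are listed in a fixed order of mice: 3681, 3715, 3716 and the first and second tumor of 3717 for p53f/f HCC, 3976, 5283, 3731, 3733 and 3975 for p53LKO HCC, and 3731, 3733, 3976, 3977 and 5283 for p53LKO ICC.

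A change was called at an adjusted p under 0.05 (limma, Benjamini-Hochberg over all probes tested) and a fold change over 2. The p-values measure the spread between 5 and 5 tumors, and the p53LKO HCC arrays are shared by both comparisons. Trp53 itself fell by 2.08 on the log2 scale from p53f/f HCC to p53LKO HCC (adjusted p = 0.000166) with no overlap between the groups, read by 1 probe that the array files place on chromosome 17 and not at the gene. The share of probes well above background followed the row of the slide, with 55.1% to 70.1% on the upper-row arrays and 37.0% to 47.0% on the lower-row arrays. The p53f/f HCC arrays all lay in the upper row of the 2 slides, the ICC arrays all in the lower row, and the p53LKO HCC arrays in both (3 upper, 2 lower). In the ICC of mouse 3733 the 15 hepatocyte markers summed to a signal of 249, in multiples of the 75th percentile, against 799 to 1795 in the other 4 ICC, 2595 to 3575 in p53LKO HCC and 3397 to 5010 in p53f/f HCC, so the count of genes called in ICC was also taken without that tumor. Cholangiocyte markers summed to 67.2 to 144 in ICC and to 5.31 to 10.5 in p53LKO HCC, which is the direction the tumor labels give, and Epcam was well above background on 5 of 5 ICC arrays and on 0 of 5 p53LKO HCC arrays.

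Between p53LKO HCC and p53f/f HCC, 1 of 41 genes was called higher, against 5.19% of all 17847 genes tested, and 3 of 41 were called lower, against 10.8%. The median change of the 41 genes was 0.015 on the log2 scale, beside 0.063 over all genes. These shares lie near those of all genes, and they depended on the scaling, with 12 higher and 1 lower under spike-in scaling and 0 and 10 under bright-probe scaling. Between ICC and HCC of p53LKO mice, 26 of 40 genes tested were called lower, against 15.2% of all 16962 genes tested, and 0 were called higher, against 13.2% (4 had a higher level at an unadjusted p under 0.05 in limma, and 0 were called higher by the Mann-Whitney test). The median change was −1.63 on the log2 scale, beside −0.17 over all genes. All 26 called genes are among the 35 made mainly by hepatocytes. The ICC did not overlap the p53LKO HCC in 28 genes that were lower, against 19.9% of all genes, and in 2 that were higher (C1qc and F3), against 10.9%. In the HCC comparison the groups did not overlap in 1 gene that was higher (C1ra), against 8.18% of all genes, and in 2 that were lower (C8b and Fgg), against 11.3%.

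**Figure D1:**
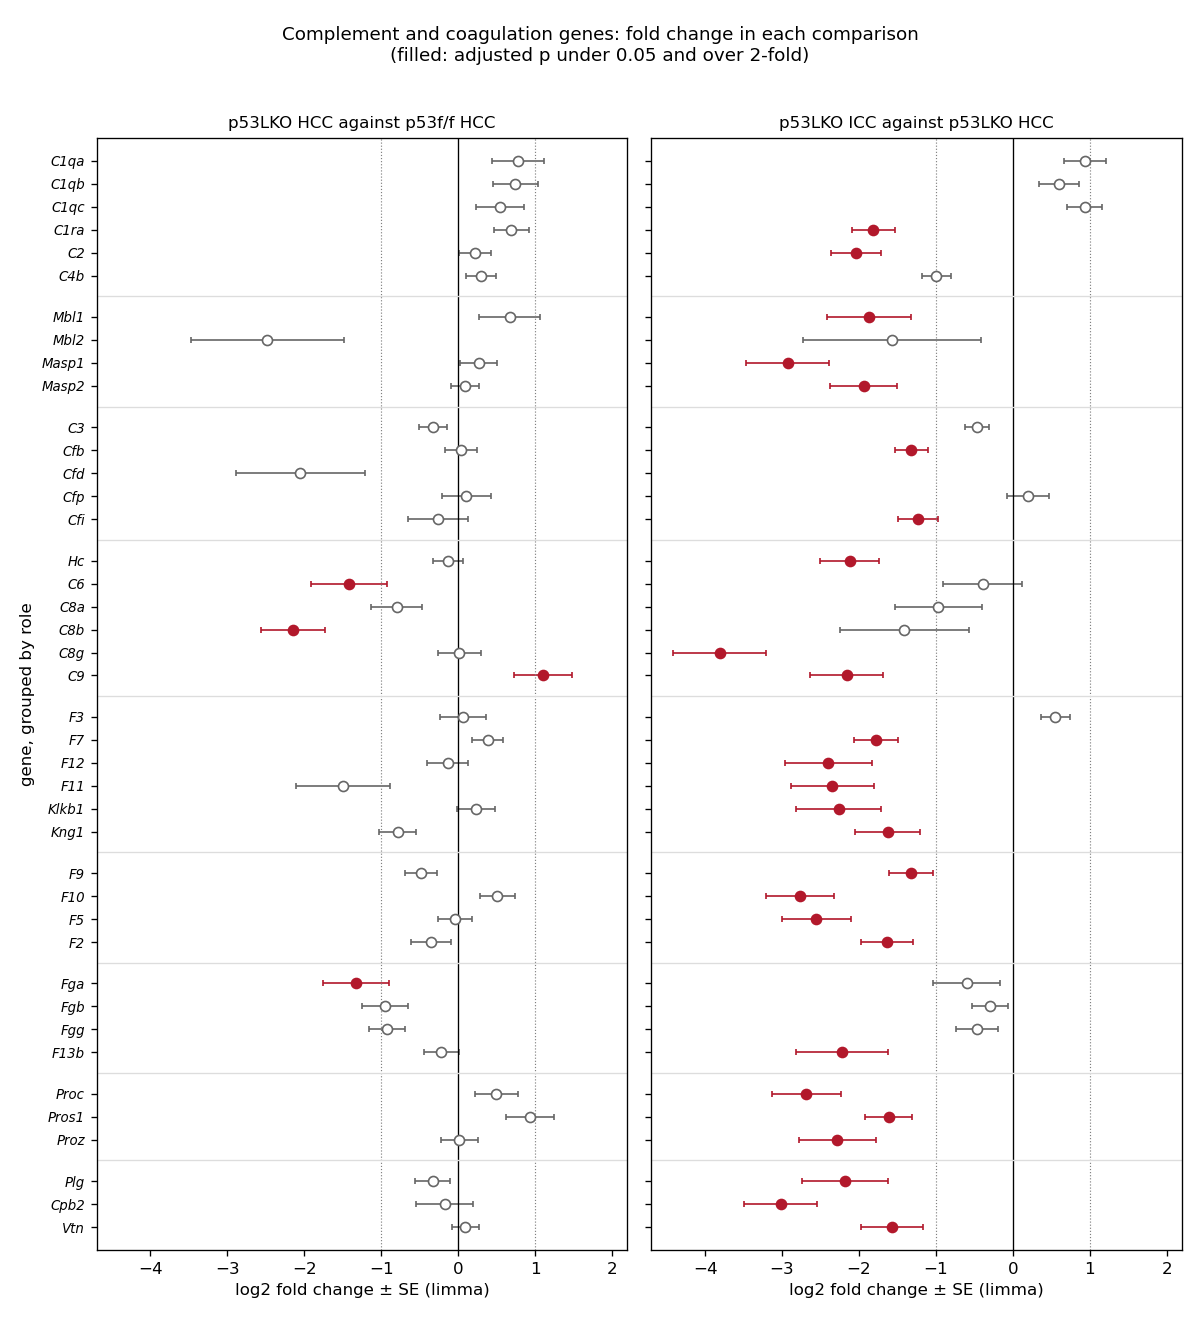
Log2 fold change with its SE from limma (horizontal axis) for each gene (vertical axis, grouped by role) in both comparisons, with filled points where the adjusted p was under 0.05 and the fold change over 2 and dotted lines at 2-fold. In p53LKO HCC against p53f/f HCC, 4 points are filled (C6, C8b and Fga lower, C9 higher), while in p53LKO ICC against p53LKO HCC 26 are filled, all to the left of 0, and the 3 C1q genes and F3 lie to the right.

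C1q, the recognition protein of the classical pathway, is built of 3 chains whose genes lie side by side. The array files place the probes on mm9 at chr4:136452409-136452468 for C1qa, chr4:136436578-136436637 for C1qb and chr4:136445766-136445825 for C1qc, all on the minus strand. C1qa and C1qc passed the adjusted p as higher in ICC than in HCC of p53LKO mice, by less than 2-fold, and C1qb did not pass. C1qa read 1.29, 2.56, 2.12, 2.85 and 2.90 on the 5 p53f/f HCC arrays, 2.73, 3.51, 3.70, 2.56 and 3.09 on the p53LKO HCC arrays and 3.61, 3.90, 4.30, 3.84 and 4.64 on the ICC arrays. Its change in ICC was 0.94 ± 0.27 on the log2 scale (SE, adjusted p = 0.0172, limma), with 4 of 5 ICC above every HCC of the same genotype. C1qb read 1.70, 2.57, 2.38, 2.88 and 2.99 in p53f/f HCC, with 2.78, 3.65, 3.83, 2.85 and 3.15 in p53LKO HCC and 3.49, 3.70, 4.19, 3.60 and 4.26 in ICC. The ICC lay above the median of the p53LKO HCC but overlapped them, and the change of 0.60 ± 0.26 did not pass the test (adjusted p = 0.0774, limma). C1qc read 2.64, 3.85, 3.81, 4.13 and 4.21 in p53f/f HCC, with 3.92, 4.75, 4.69, 3.88 and 4.13 in p53LKO HCC and 4.78, 5.34, 5.39, 5.18 and 5.34 in ICC. Here all 5 ICC lay above all 5 p53LKO HCC, by 0.93 ± 0.22 on the log2 scale (adjusted p = 0.00674, limma, exact permutation p = 0.00794, the smallest that 5 against 5 arrays can give).

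Between the HCC groups the 3 chains were 0.77, 0.75 and 0.55 higher on the log2 scale in p53LKO (C1qa, C1qb and C1qc), with adjusted p of 0.102, 0.0730 and 0.204 (limma), so that none passed. Tumor 3681 gave the lowest level of every chain, and with it left out the differences were 0.51, 0.54 and 0.27. Within p53f/f HCC the 3 chains gave the tumors the same order, with the second tumor of mouse 3717 the highest. The 11 macrophage markers on the array summed to 77.3 to 145 in p53f/f HCC, 103 to 205 in p53LKO HCC and 139 to 198 in ICC, so that by this sum, which the brightest genes carry, the ICC lay within the range of the p53LKO HCC. By the mean of their log2 signals, 1.44 to 2.52, 1.99 to 2.97 and 2.87 to 3.23 in the same groups, 4 of the 5 ICC lay above every p53LKO HCC, and the median change of the 11 markers in ICC was 0.64 on the log2 scale, beside −0.17 over all genes. Of these 11, 1 was called higher in p53LKO HCC (Cd14), against 5.19% of all genes. In ICC 3 were called higher, against 13.2% of all genes, Lyz2 and Aif1 among them. Of the 6 Kupffer cell markers tested 0 were called in either direction. Their median change was −0.28 on the log2 scale in p53LKO HCC and −0.72 in ICC. The 7 Kupffer cell markers on the array summed to 14.2 to 97.1, 11.7 to 108 and 5.31 to 84.8 in the 3 groups. The part of macrophages and Kupffer cells in the C1q levels was not tested, and in whole tumors more cells of a type and more RNA per cell cannot be told apart. RefSeq promoters on build GRCm38.p6 were at hand for C1qb and C1qc, shown here because the chains form 1 protein from neighbouring genes: the 250 bases before the start of C1qb at chr4:136886201-136886450 and of C1qc at chr4:136892915-136893164, both on the minus strand and written in the direction of the gene. Capitals mark matches, on either strand, to CAAAGTCCA (HNF4), TTNNGNAA (C/EBP), CTGGGAA (an IL-6 response element) or GAGGAAGT (PU.1).
C1qb: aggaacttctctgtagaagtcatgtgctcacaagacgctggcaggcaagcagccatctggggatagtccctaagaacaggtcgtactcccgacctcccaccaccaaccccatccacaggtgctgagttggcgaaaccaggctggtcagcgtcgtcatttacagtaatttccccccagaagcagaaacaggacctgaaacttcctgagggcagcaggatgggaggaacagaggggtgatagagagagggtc
C1qc: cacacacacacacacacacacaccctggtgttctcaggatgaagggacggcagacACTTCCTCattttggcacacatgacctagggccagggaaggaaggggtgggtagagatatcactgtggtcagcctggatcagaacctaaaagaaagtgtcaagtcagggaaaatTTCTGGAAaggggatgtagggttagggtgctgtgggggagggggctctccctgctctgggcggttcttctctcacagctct
C1qc holds GAGGAAGT on the opposite strand, 195 bases before its start, a string that 2.44% of 32851 promoters of this length contain, and TTNNGNAA 81 bases before it, which 36.8% contain. C1qb holds none of the 4.

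**Figure D2:**
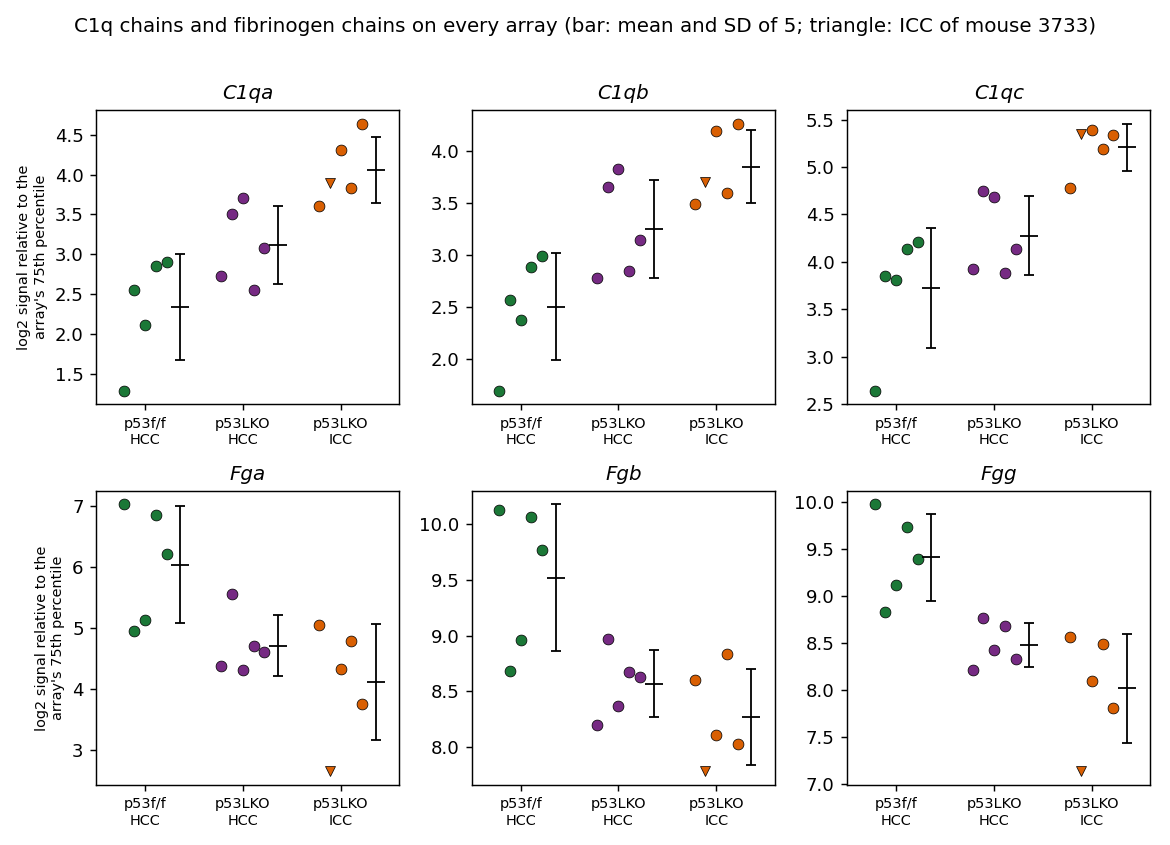
Log2 signal relative to the 75th percentile of the array (vertical axis) of the 3 C1q chains and the 3 fibrinogen chains on each of the 15 arrays, 1 point per tumor, with the mean and SD of each group of 5 as a bar and the ICC of mouse 3733 as a triangle. The C1q chains rise in mean from p53f/f HCC to p53LKO HCC to ICC (3.73, 4.27 and 5.21 for C1qc). None of them passed the adjusted p between the HCC groups, and C1qb did not pass in ICC. The fibrinogen chains are highest in p53f/f HCC (9.41 for Fgg) and overlap between the p53LKO groups.

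The other classical pathway genes, which act after C1q and are made by hepatocytes, were lower in ICC. C1ra, the first protease of the complex, read 6.44, 6.32, 5.85, 6.13 and 5.91 in p53LKO HCC and 4.71, 3.42, 4.80, 4.70 and 3.95 in ICC, a fall of 3.52-fold (log2 −1.82 ± 0.28, adjusted p = 0.000654, limma) with all 5 ICC below all 5 of these HCC. Its near-identical copy C1rb fell alike (−1.72, adjusted p = 0.00106, limma), and the probes may not separate them. C1ra was also the 1 gene of the 41 whose p53LKO HCC all lay above the p53f/f HCC (5.81, 5.84, 4.76, 5.50 and 5.29). The margin on the probe used was narrow, 5.85 against 5.84, and the change of 0.69 ± 0.23 stayed under 2-fold. C2, the protease that C1s activates, read 5.60, 5.86, 5.88, 6.38 and 5.76 in p53f/f HCC, with 6.71, 5.85, 5.90, 6.02 and 6.09 in p53LKO HCC and 4.26, 2.84, 4.61, 4.42 and 4.23 in ICC. It was not called between the HCC groups and was 4.12-fold lower in ICC (adjusted p = 0.000781, limma). C4b, its partner in the C3 convertase, changed by −0.99 ± 0.19 on the log2 scale in ICC (adjusted p = 0.00209, limma), just under the 2-fold limit and with 5 of 5 ICC below every p53LKO HCC. Its copy C4a may share the probe.

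In the lectin pathway, Masp1 and Masp2, the proteases bound to mannose-binding lectin, and the lectin Mbl1 were called lower in ICC. Masp1 read 3.34, 3.97, 3.02, 3.23 and 3.81 in p53LKO HCC and 1.69, −1.64, 0.69, 1.47 and 0.54 in ICC, a 7.61-fold fall (log2 −2.93 ± 0.54, adjusted p = 0.00177, limma). Masp2 read 3.89, 3.53, 3.18, 3.59 and 3.44 in p53LKO HCC and 2.38, −0.20, 1.63, 2.46 and 1.66 in ICC, a 3.83-fold fall (adjusted p = 0.00520, limma). For Mbl1 the levels were 2.63, 3.34, 2.16, 3.39 and 1.97 in p53LKO HCC and 1.97, −0.99, 0.91, 1.90 and 0.37 in ICC, a 3.65-fold fall (adjusted p = 0.0173, limma). For each of the 3 the ICC of mouse 3733 was far below the other ICC, and no ICC reached the lowest p53LKO HCC. The other lectin, Mbl2, varied more between tumors than any other of the 41 genes in p53LKO HCC (SD 2.43). It read 6.88, 7.90, 5.91, 5.70 and 6.52 in p53f/f HCC, with 1.09, 2.14, 4.87, 6.96 and 5.45 in p53LKO HCC and 3.52, 0.74, 2.21, 5.07 and 1.13 in ICC. The p53LKO HCC of mice 3976 and 5283, the 2 arrays of that group in the lower row of the slide, were far below the other 3, and neither comparison passed (log2 −2.48 ± 0.99, adjusted p = 0.0770, and −1.57 ± 1.16, adjusted p = 0.290, limma). With the row of the slide as a block the second value turned to 0.92 (adjusted p = 0.543, limma), and with the slide as a block the first became −3.46 and passed (adjusted p = 0.0140, limma). The first also passed with scaling to bright probes (−2.72), within slide 1 (−4.98) and without the HCC of mouse 3733 (−3.19, adjusted p = 0.0221, limma), and was −1.72 without that of mouse 3976. The second was −2.32 without the HCC of mouse 3976, −0.85 without that of mouse 3733 and −2.20 without the ICC of mouse 3977, and did not pass in these 3. Within slide 2 alone the second was −3.48 and passed (adjusted p = 0.0376, limma). Masp2 was also read by a dimmer probe that was called lower in p53LKO HCC than in p53f/f HCC (−1.15, adjusted p = 0.00985, limma), whereas its main probe read 0.084 and another probe −0.16, so the probes of this gene disagree in that comparison.

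C3, on which all 3 pathways meet, was among the least changed of the hepatocyte genes. It read 9.68, 10.06, 10.52, 10.16 and 9.87 in p53f/f HCC, with 9.83, 9.53, 9.66, 9.99 and 9.63 in p53LKO HCC and 9.35, 9.20, 9.31, 9.46 and 9.02 in ICC. The ICC lay below every p53LKO HCC, with a change of −0.46 ± 0.15 on the log2 scale (adjusted p = 0.0302, limma). Factor B (Cfb), the protease of the alternative pathway, and factor I (Cfi), which cuts C3b, were called lower in ICC. Cfb read 8.11, 7.53, 7.54, 7.91 and 7.92 in p53LKO HCC and 6.90, 5.84, 6.54, 6.65 and 6.48 in ICC, a 2.50-fold fall (adjusted p = 0.000933, limma). Cfi read 7.34, 7.85, 7.08, 7.78 and 7.89 in p53LKO HCC and 7.03, 5.86, 6.36, 6.63 and 5.91 in ICC, a 2.35-fold fall (adjusted p = 0.00388, limma). All ICC lay below all p53LKO HCC in both genes. With the mouse as a block, which uses the 4 mice with both tumors, the fall of Cfi had an adjusted p of 0.0554. Properdin (Cfp), which stabilises the convertase and is known from leukocytes, changed by 0.20 ± 0.27 in ICC and was called in neither comparison. Factor D (Cfd), known from adipocytes, gave a signal clearly over background in 3 of 5 p53f/f HCC and in none of the p53LKO tumors, at least 1.04-fold lower in p53LKO HCC (adjusted p = 0.0818, limma), and was not tested between the p53LKO groups.

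The terminal components split in both comparisons. C8 is made of 3 chains, alpha (C8a), beta (C8b) and gamma (C8g), the last a lipocalin. C8b read 4.39, 4.42, 3.86, 3.90 and 3.08 in p53f/f HCC, with 0.48, 1.62, 2.56, 1.58 and 2.68 in p53LKO HCC and 2.03, −2.40, 0.95, 2.19 and −0.90 in ICC. The 2 HCC groups did not overlap, with p53LKO lower, a 4.42-fold difference (log2 −2.14 ± 0.42, adjusted p = 0.00305, limma), and it was called lower in 28 of 29 alternative settings. The exception was slide 2 on its own, which holds 1 p53f/f HCC and gave −0.81. The change of C8b in ICC was −1.41 ± 0.84 and did not pass (adjusted p = 0.191, limma), with 3 of the 5 ICC within the range of the p53LKO HCC, and was −0.72 without the ICC of mouse 3733. C8g read 7.83, 7.96, 7.35, 7.40 and 7.34 in p53f/f HCC, with 6.77, 7.61, 7.40, 8.42 and 7.76 in p53LKO HCC and 5.12, 1.77, 3.62, 5.20 and 3.21 in ICC. It was not called between the HCC groups and had the largest fall in ICC of the 40 genes tested, 14.0-fold (log2 −3.81 ± 0.60, adjusted p = 0.000774, limma). C8a changed by −0.97 ± 0.56 in ICC and was called in neither comparison.

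C6 and C9, which join the pore before and after C8, moved in opposite directions between the HCC groups. C6 read 1.06, 3.18, 2.87, 0.74 and 1.69 in p53f/f HCC, with 0.59, 1.14, 1.01, 0.06 and −0.33 in p53LKO HCC and 1.29, −1.61, 0.70, 0.56 and −0.44 in ICC. Its fall in p53LKO HCC was 2.67-fold (log2 −1.42 ± 0.49, adjusted p = 0.0464, limma), with 3 of 5 p53LKO HCC below every p53f/f HCC. C9 read 2.04, 3.11, 2.62, 1.09 and 1.94 in p53f/f HCC, with 2.86, 3.45, 2.81, 4.12 and 3.06 in p53LKO HCC and 2.26, −0.63, 1.39, 1.46 and 1.04 in ICC. It was the 1 gene called higher in p53LKO HCC, by 2.15-fold (log2 1.10 ± 0.38, adjusted p = 0.0447, limma), with 2 of 5 above every p53f/f HCC. Both calls lie close to the threshold and were lost in most alternative settings: C6 was called in 11 of 29 and C9 in 9 of 29. In ICC, C9 was called 4.46-fold lower (adjusted p = 0.00444, limma) and C6 was not called (−0.39 ± 0.51, adjusted p = 0.553, limma). C5, written Hc on the array, splits first in the terminal pathway and read 7.94, 7.48, 7.46, 8.04 and 7.96 in p53LKO HCC and 6.56, 4.24, 5.94, 6.21 and 5.35 in ICC, a 4.34-fold fall (adjusted p = 0.00158, limma) with no overlap.

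**Figure D3:**
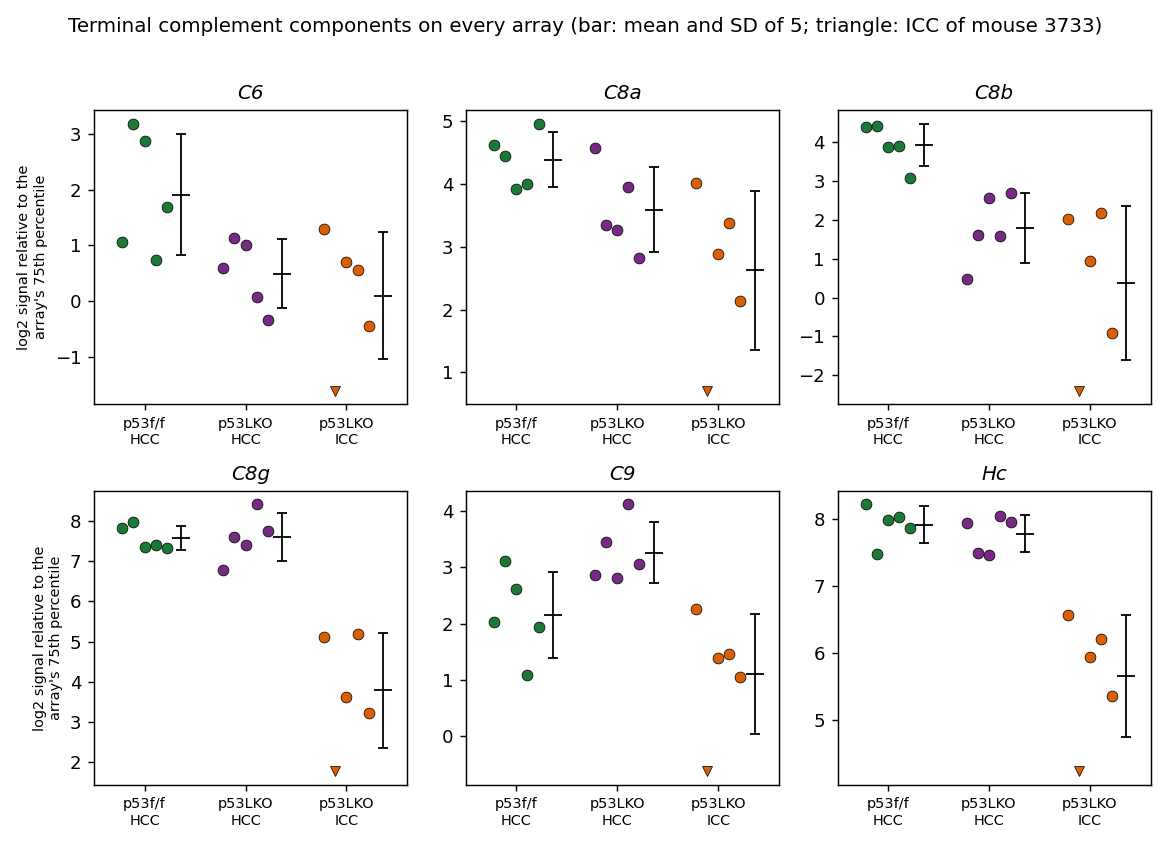
Log2 signal relative to the 75th percentile of the array (vertical axis) of the 6 terminal complement genes on each array, 1 point per tumor, with the mean and SD of each group of 5 as a bar and the ICC of mouse 3733 as a triangle. C8b steps down between the HCC groups (means 3.93 and 1.79), C8g steps down between HCC and ICC of p53LKO mice (7.59 and 3.78), and C9 is highest in p53LKO HCC (3.26).

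Coagulation starts from tissue factor (F3), a membrane protein of cells around vessels, or from the contact system. F3 read 0.00, −0.04, −0.55, −0.95 and 0.73 in p53f/f HCC, with 0.16, −0.56, −0.34, 0.12 and 0.13 in p53LKO HCC and 0.30, 0.69, 0.34, 0.30 and 0.64 in ICC. All 5 ICC lay above all 5 p53LKO HCC, by 0.55 ± 0.19 on the log2 scale (adjusted p = 0.0357, limma), under the 2-fold limit. A second, much dimmer F3 probe, well above background on 3 of the p53LKO HCC and on 0 of the ICC arrays, showed no such difference (means of −4.17 and −4.22), so the rise rests on 1 probe. The other 5 genes of this group, made by hepatocytes, were all called lower in ICC. Factor XII (F12) read 5.62, 6.03, 5.02, 5.50 and 5.42 in p53LKO HCC and 4.28, 0.97, 3.53, 4.31 and 2.53 in ICC, a 5.27-fold fall (log2 −2.40 ± 0.57, adjusted p = 0.00661, limma). Factor XI (F11) read 3.13, 1.35, 2.93, 2.04 and 3.05 in p53LKO HCC and 1.01, −1.67, 0.27, 1.17 and 0.00 in ICC, a 5.08-fold fall (adjusted p = 0.00565, limma). Plasma prekallikrein (Klkb1) read 4.48, 4.68, 3.36, 4.21 and 4.45 in p53LKO HCC and 2.70, −0.26, 2.39, 3.11 and 1.93 in ICC, a 4.81-fold fall (adjusted p = 0.00790, limma). No ICC reached the lowest p53LKO HCC in any of the 3 genes. Factor VII (F7), the partner of tissue factor, fell 3.43-fold and kininogen (Kng1) 3.09-fold (adjusted p = 0.000832 and 0.0105, limma).

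Within p53f/f HCC, F11 lay at separate levels (5.27, 2.57, 2.47, 4.94 and 4.77), with tumors 3715 and 3716 near those of p53LKO HCC, and its 2.83-fold lower level in p53LKO HCC did not pass (adjusted p = 0.0817, limma). Kng1 changed in p53LKO HCC by −0.79 ± 0.24 on the log2 scale (adjusted p = 0.0276, limma), under 2-fold, with 4 of 5 below every p53f/f HCC. A second Kng1 probe, placed at chr16:22987705-22987764 on mm9 and not with the first at chr16:23081700-23081759, read 0.00 ± 0.21 in that comparison and −2.93 in ICC. Its close relative Kng2 was called lower in both (−1.10 and −2.13), and the probes may not separate the 2 genes.

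The factors of the tenase and prothrombinase steps, F9, F10, F5 and prothrombin (F2), were called lower in ICC in 4 of 4 cases and in p53LKO HCC in 0 of 4, where they ranged from −0.48 to 0.51 on the log2 scale. Factor X (F10), the protease that cuts prothrombin, read 7.54, 6.90, 6.94, 7.90 and 7.43 in p53LKO HCC and 5.47, 2.87, 4.86, 5.27 and 4.39 in ICC, a 6.81-fold fall (log2 −2.77 ± 0.45, adjusted p = 0.000834, limma). Its cofactor factor V (F5) read 5.23, 4.89, 4.75, 5.18 and 5.13 in p53LKO HCC and 3.33, 0.89, 2.91, 3.54 and 1.74 in ICC, a 5.86-fold fall (log2 −2.55 ± 0.45, adjusted p = 0.00145, limma). Prothrombin read 8.53, 8.07, 7.94, 8.60 and 8.28 in p53LKO HCC and 7.14, 5.40, 6.74, 7.42 and 6.52 in ICC, a 3.11-fold fall (adjusted p = 0.00333, limma). Factor IX (F9) fell 2.50-fold (adjusted p = 0.00408, limma). In each of the 4 genes all ICC lay below all HCC of the same genotype.

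The 3 chains of fibrinogen, the last substrate of the cascade, passed the adjusted p as lower in p53LKO HCC than in p53f/f HCC, and none was called in ICC. The genes sit next to each other, with probes on mm9 at chr3:82818825-82818884 for Fgg, chr3:82835678-82835737 for Fga and chr3:82846334-82846393 for Fgb, Fgb on the minus strand. The alpha chain (Fga) read 7.03, 4.95, 5.14, 6.85 and 6.22 in p53f/f HCC, with 4.37, 5.56, 4.31, 4.70 and 4.61 in p53LKO HCC and 5.05, 2.64, 4.32, 4.78 and 3.75 in ICC. It was called lower in p53LKO HCC, by 2.51-fold (log2 −1.33 ± 0.43, adjusted p = 0.0363, limma), with 4 of 5 below every p53f/f HCC, and was called in 11 of 29 alternative settings. A second Fga probe gave −0.996 without passing (adjusted p = 0.125, limma). The beta chain (Fgb) read 10.13, 8.69, 8.96, 10.06 and 9.76 in p53f/f HCC, with 8.20, 8.97, 8.37, 8.68 and 8.63 in p53LKO HCC and 8.60, 7.78, 8.11, 8.83 and 8.03 in ICC. The gamma chain (Fgg) read 9.98, 8.83, 9.12, 9.73 and 9.40 in p53f/f HCC, with 8.22, 8.77, 8.42, 8.68 and 8.34 in p53LKO HCC and 8.56, 7.14, 8.10, 8.50 and 7.81 in ICC. Both passed the adjusted p in the HCC comparison but not the 2-fold limit: Fgb was −0.95 ± 0.30 (adjusted p = 0.0333) and Fgg −0.93 ± 0.23 (adjusted p = 0.0114, limma). In Fgg the 2 HCC groups did not overlap (exact permutation p = 0.00794). The 3 chains varied together inside p53f/f HCC, where tumors 3715 and 3716 were the lowest of the 5 in each chain and tumor 3681 the highest.

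In ICC the changes of the chains were −0.60, −0.30 and −0.46 on the log2 scale (Fga, Fgb and Fgg), with 95% intervals of −1.55 to 0.35, −0.81 to 0.22 and −1.05 to 0.13, and adjusted p of 0.277, 0.324 and 0.180 (limma). These intervals leave room for falls of up to about the 2-fold limit or past it, so they do not show that fibrinogen was equal in both tumor types. In mouse 3731 each chain was higher in the ICC than in the HCC of the same animal, and in the other 3 mice with both tumors each chain was lower, by no more than 0.12 in mouse 3976. Whether fibrinogen differed from the other coagulation genes was not tested. F13b, the carrier subunit of factor XIII, was called lower in ICC. It read 2.50 to 3.45 in the 5 p53LKO HCC and 2.01, −1.58, 0.91, 2.12 and 0.70 in ICC, a 4.65-fold fall (adjusted p = 0.0127, limma), and was not called between the HCC groups. Without the ICC of mouse 3733 its fall was 3.06-fold (adjusted p = 0.00607, limma). The RefSeq promoters of the 3 chains on GRCm38.p6 are shown because all 3 chains passed the adjusted p in the HCC comparison, as the 250 bases before the start at chr3:83025903-83026152 for Fga (plus strand), chr3:83049864-83050113 for Fgb (minus strand) and chr3:83007474-83007723 for Fgg (plus strand), with the same 4 motifs in capitals.
Fga: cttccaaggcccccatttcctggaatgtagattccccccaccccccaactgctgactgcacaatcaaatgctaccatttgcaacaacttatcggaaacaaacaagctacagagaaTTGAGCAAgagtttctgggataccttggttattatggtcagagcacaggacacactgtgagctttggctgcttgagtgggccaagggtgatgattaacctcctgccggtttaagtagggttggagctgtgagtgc
Fgb: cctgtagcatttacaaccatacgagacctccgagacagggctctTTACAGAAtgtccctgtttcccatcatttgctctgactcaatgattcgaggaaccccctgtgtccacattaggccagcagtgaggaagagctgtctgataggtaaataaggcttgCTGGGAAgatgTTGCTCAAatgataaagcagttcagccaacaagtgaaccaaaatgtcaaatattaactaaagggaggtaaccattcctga
Fgg: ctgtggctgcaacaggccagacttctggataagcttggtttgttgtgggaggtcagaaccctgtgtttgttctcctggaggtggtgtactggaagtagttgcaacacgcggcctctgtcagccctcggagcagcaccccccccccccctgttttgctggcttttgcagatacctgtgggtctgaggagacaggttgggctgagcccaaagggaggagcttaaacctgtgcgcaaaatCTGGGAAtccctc
Fgb and Fgg hold CTGGGAA on the gene strand, 91 and 13 bases before the start, and Fga and Fgb hold TTNNGNAA, 135 bases before it in Fga and 206 and 80 bases in Fgb. Of the 41 genes, 32 had a promoter entry, 27 of them among the 35 made mainly by hepatocytes. Of these 27, 18.5% held CTGGGAA on either strand, against 9.10% of all 32851 promoters, 44.4% held TTNNGNAA against 36.8%, and none held CAAAGTCCA, which 0.384% of all promoters hold, or GAGGAAGT. These are matches of letters within 250 bases and not binding sites.

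The 3 proteins of the group that hold clotting back were called lower in ICC. Protein C (Proc), which inactivates factors V and VIII, read 6.91, 6.23, 5.64, 6.79 and 6.45 in p53f/f HCC, with 6.46, 6.50, 6.90, 7.39 and 7.25 in p53LKO HCC and 4.75, 2.38, 4.38, 4.96 and 4.63 in ICC, a 6.42-fold fall in ICC (log2 −2.68 ± 0.45, adjusted p = 0.00103, limma). Protein Z (Proz), a cofactor in the inhibition of factor X, read 6.98, 6.70, 5.69, 6.81 and 6.83 in p53LKO HCC and 5.16, 2.63, 4.46, 5.55 and 3.80 in ICC, a 4.86-fold fall (adjusted p = 0.00445, limma). Protein S (Pros1), the cofactor of protein C, read 2.69, 3.15, 2.74, 2.06 and 2.12 in p53f/f HCC, with 2.94, 4.01, 3.05, 3.19 and 4.23 in p53LKO HCC and 2.38, 1.27, 2.12, 1.91 and 1.70 in ICC. Protein S was thus highest in p53LKO HCC, by 0.93 ± 0.31 over p53f/f HCC (adjusted p = 0.0407, limma, under 2-fold), and fell 3.05-fold in ICC (adjusted p = 0.00198, limma).

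Fibrin is dissolved by plasmin, made from plasminogen (Plg), and the carboxypeptidase Cpb2 slows this step. Cpb2 read 6.88, 7.24, 7.41, 8.20 and 8.08 in p53LKO HCC and 5.95, 3.12, 4.38, 5.13 and 4.16 in ICC, a 8.09-fold fall (log2 −3.02 ± 0.48, adjusted p = 0.000747, limma). Plasminogen read 7.42, 6.88, 6.84, 7.26 and 7.03 in p53LKO HCC and 5.74, 2.56, 5.26, 6.20 and 4.75 in ICC, a 4.54-fold fall (adjusted p = 0.00995, limma). Vitronectin (Vtn), an adhesion protein that also binds the terminal complement complex, read 8.03, 7.66, 7.51, 8.09 and 7.79 in p53LKO HCC and 7.02, 4.78, 6.95, 6.75 and 5.73 in ICC, a 2.97-fold fall (adjusted p = 0.00960, limma). As in the clotting factors, no ICC of these 3 genes reached the lowest p53LKO HCC. None of the 3 was called between the HCC groups, where they ranged from −0.33 to 0.09 on the log2 scale.

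**Figure D4:**
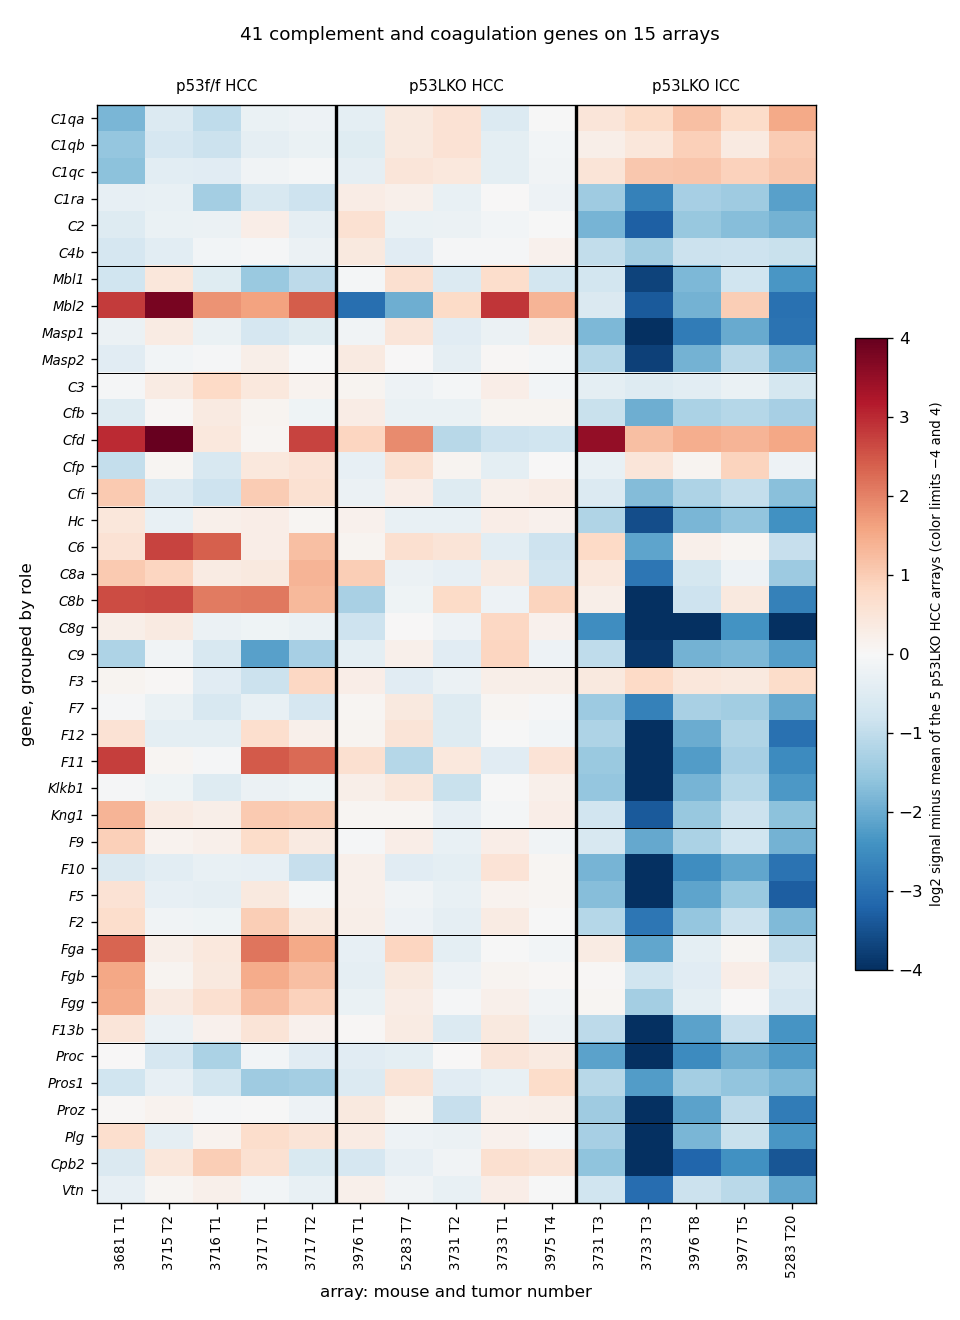
Log2 signal minus the mean of the 5 p53LKO HCC arrays (color, limited to −4 and 4) for the 41 genes (rows, grouped by role) on the 15 arrays (columns, by group, named by mouse and tumor number). The ICC columns are blue (lower) for most genes, and the column of the ICC of mouse 3733 is darkest. The rows of the C1q genes, F3 and Cfd lie above 0 in all 5 ICC columns, while Cfp lies on both sides of 0. Cfd was not above background on any p53LKO array.

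The ICC differed in how far the hepatocyte-made genes had fallen. Over these 35 genes the median difference from the p53LKO HCC mean was −1.11, −3.37, −1.54, −1.06 and −2.18 on the log2 scale in the ICC of mice 3731, 3733, 3976, 3977 and 5283, against −0.31 to 0.17 in the 5 p53LKO HCC and −0.05 to 0.27 in the 5 p53f/f HCC. The ICC of mouse 3733 was the lowest of the 5 ICC in 34 of the 35 genes. The spread within ICC was larger with it: the median SD of the 35 genes was 1.05 in ICC, 0.37 in p53LKO HCC and 0.44 in p53f/f HCC, and 0.51 in ICC without mouse 3733. Without that tumor the same 26 genes were called lower, and the median change over all 40 genes was −1.37 in place of −1.63. For the 3 C1q genes the medians were 0.49, 0.78, 1.11, 0.72 and 1.06 in the ICC in the same order of mice, so the tumor with the lowest hepatocyte genes was not at either end for C1q.

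Markers of several cell types differed beside the hepatocyte-made genes. Over all genes tested, 15.2% were called lower and 13.2% higher in ICC, and 10.8% and 5.19% in p53LKO HCC. Of 15 hepatocyte markers, 9 were called lower in ICC and 0 higher, with Alb at −1.91 and Hnf4a at −2.03 on the log2 scale, while Cyp2e1 was 1.94 without passing (adjusted p = 0.101, limma). The order of the summed markers over the 5 ICC (3733 lowest, then 5283, 3976, 3731 and 3977) was that of the medians of the 35 genes. Of 9 fibroblast and stellate cell markers 6 were called higher in ICC, with a median of 2.30 on the log2 scale, and they summed to 495 to 879 in ICC, 75.6 to 255 in p53LKO HCC and 32.2 to 118 in p53f/f HCC. The part of the shares of these cells in the changes was not tested, and fewer hepatocytes and less RNA per hepatocyte cannot be told apart in whole tumors. Between the HCC groups 2 of 15 hepatocyte markers (Apob and Pck1) were called lower and 1 of 9 fibroblast and stellate cell markers higher.

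**Figure D5:**
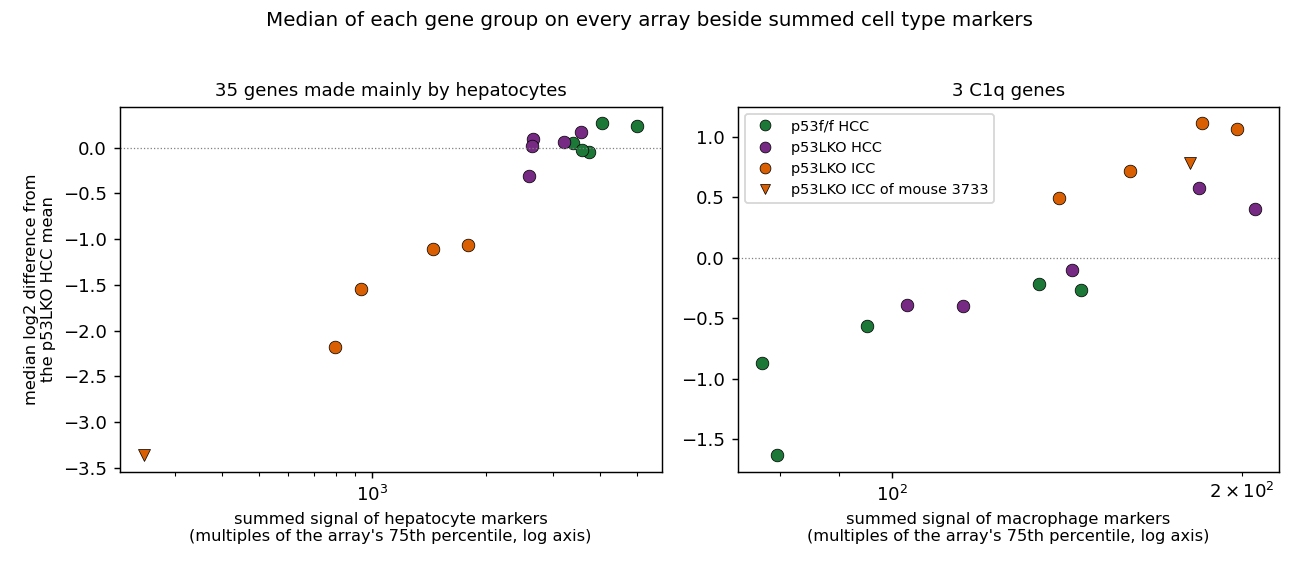
Median log2 difference from the mean of the p53LKO HCC arrays (vertical axis) against the summed signal of cell type markers (horizontal log axis, multiples of the 75th percentile of the array), for the 35 hepatocyte-made genes with hepatocyte markers (left) and the 3 C1q genes with macrophage markers (right), 1 point per tumor. The 5 ICC lie lowest on the left, from −1.06 down to −3.37 for mouse 3733 (triangle), and between 0.49 and 1.11 on the right.

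Comparing tumors of the same animal gave the same picture in 3 of 4 mice and a weaker one in the fourth. In mice 5283 and 3733 all 35 hepatocyte-made genes were lower in the ICC than in the HCC, with medians of −2.13 and −3.71 on the log2 scale. In mouse 3976, 32 of 35 were lower (median −1.69), the exceptions being Mbl2, C6 and C8b. In mouse 3731, 30 of 35 were lower (median −0.67), the exceptions being C6, C8a and the 3 fibrinogen chains. Over the 4 mice 28 of 35 genes were lower in every ICC. The same counts were not taken over all genes, whose median change between the p53LKO groups was −0.17 on the log2 scale. The 3 C1q genes were higher in the ICC in 3 of 4 mice (medians 1.47, 0.61 and 1.34 in 3976, 5283 and 3733), whereas in mouse 3731 2 of the 3 were lower, with a median of −0.10.

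Other genes of both cascades were read from lists of related genes. Beside these counts, 15.2% of all genes tested were called lower and 13.2% higher in ICC. In p53LKO HCC the shares were 10.8% lower and 5.19% higher. Of 14 other plasma complement genes tested, 4 were called lower in ICC (C1rb, C4bp, Colec11 and Cfhr2) and 0 higher, and 0 were called between the HCC groups. Among 11 complement receptors and membrane regulators, 6 were called higher in ICC and 1 lower. Cr2, a receptor for C3 fragments, was 5.50 ± 0.61 and Cd55, which breaks up the convertases on the cell surface, 4.10 ± 0.43 on the log2 scale, and the receptors C3ar1, C5ar1, Itgam and Itgax were 1.34, 1.39, 1.56 and 2.11. The 1 that fell was the pore inhibitor Cd59a (−1.21). In p53LKO HCC, Itgam and Cd55 were called lower than in p53f/f HCC (−2.09 and −1.83). Itgam is also carried by neutrophils, whose 7 markers on the array did not go one way in p53LKO HCC: 2 of 6 tested were called higher (S100a8 and S100a9) and 1 lower (Csf3r, −1.55), with a median of 0.77 on the log2 scale, while their summed signal was 288 to 383 in p53f/f HCC, 133 to 178 in p53LKO HCC and 131 to 370 in ICC. Their part in the Itgam level was not tested. Of 15 other plasma coagulation genes, 8 were called lower in ICC, led by heparin cofactor II (Serpind1, −2.84) and with antithrombin (Serpinc1, −2.25), and 2 higher, Vwf (1.46) and F13a1 (1.53), which are known from endothelium and from macrophages and platelets. Of the 7 endothelial cell markers 0 were called in ICC, with a median of −0.86 on the log2 scale and a summed signal of 27.3 to 44.3 in p53LKO HCC and 11.3 to 35.7 in ICC. In p53LKO HCC, F8 (−1.75) and Kng2 were called lower and Gas6 (1.04) higher. Factor VIII is also known from endothelium, and 2 of the 7 endothelial markers were called lower there and 0 higher (median −0.33, with sums of 30.3 to 56.3 in p53f/f HCC). Their part in the Vwf and F8 levels was not tested. Of the cell surface and fibrinolysis genes, 4 of 12 were called higher in ICC (Thbd, Procr, Plau and Plaur, 1.41 to 1.72) and 2 lower, Lman1 and Mcfd2 (−1.51 and −1.15), which carry factors V and VIII out of the endoplasmic reticulum. Tissue plasminogen activator (Plat, 3.02 ± 0.67) and the urokinase receptor (Plaur, 1.35) were called higher in p53LKO HCC than in p53f/f HCC.

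The row of the slide goes with the groups. With the row as a block 20 of the 26 genes stayed called lower in ICC. With only the lower row, which holds 2 HCC and 5 ICC, 15 stayed called. The ICC all lie in the lower row, so both fits estimate the change against the same 2 HCC, of mice 3976 and 5283. Their medians over the 40 genes, −1.68 each, are therefore the same value. Mbl1, F11, Kng1, F13b, Plg and Vtn lost the call in both fits, and all of these but F11 also with the methods' t-test. Masp2, C9, F12, Klkb1 and F2 lost it in the lower row alone. Over all probes 11.5% were called lower with the block and 10.3% in the lower row. Within slide 2 (3 HCC and 4 ICC) 26 genes were called lower, 24 of them among the 26, against 13.4% of all probes. C1qa and C1qc were called higher there, against 9.61% of all probes. Within slide 1, which holds 2 HCC and 1 ICC, the median of the 40 genes was −0.99. Between the HCC groups, the upper row alone gave 0 genes higher and 3 lower, against 3.21% and 16.2% of all probes. Slide 1 (4 p53f/f and 2 p53LKO) gave 0 and 2, against 1.06% and 8.67%. Slide 2 holds 1 p53f/f and 3 p53LKO HCC, and the median change of the 41 genes there was −0.073. Scaling also mattered between the HCC groups. The median change of all genes was 0.80 with scaling to spike-in probes and −0.18 with scaling to bright probes. These 2 scalings gave the 12 and 1 and the 0 and 10 calls stated above. Over all probes spike-in scaling called 27.2% higher and 6.41% lower, and bright-probe scaling 1.75% higher and 22.0% lower, so these counts lie near the shares over all probes. Both scalings shift the change of every gene by the same amount. The median of the 41 relative to all genes therefore stayed at −0.048 on the log2 scale by construction. In ICC scaling to bright probes moved the median of all genes to 0.20, and 2 genes (C1qa and C1qc) were called higher and 23 lower.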

How the data were processed

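Cy3-labelled RNA of 15 whole tumors (5 per group, RIN above 8 per the labels) was hybridised to 1-color Agilent 8x60K arrays, 1 array per tumor. The deposited intensity values were extracted by the authors with Agilent Feature Extraction, background-subtracted and detrended, and not normalized between arrays. A deposited table by the authors holds log2 values relative to the 75th percentile of each array, centred per probe, and served as an alternative for the HCC comparison.

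Spots of a probe were averaged as log2 intensity minus the 75th percentile of the array. Probes detected by the software on 3 or more arrays of either group entered limma (version 3.58.1, R 4.3.3), 36086 in the HCC comparison and 32670 in ICC, with Benjamini-Hochberg adjustment over all of them. Each fit held only the 10 arrays compared. Control spots were left out, 0 spots of the members were saturated, and the number of arrays limits the precision. At least N-fold marks a bound set by background. Scripts were tested on simulated data.

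The members and lists were chosen with earlier results of these data known. Values were given for genes leading each role and for all C1q and fibrinogen chains. Each gene was read from its brightest probe. Of the members, 12 had 14 further tested probes, of which 12 gave the same call and 8 the same sign in the HCC comparison, where few genes were called, and 14 and 13 in ICC. Alternatives were other background corrections, scalings, filters, tests and fold thresholds, the slide, its row or the mouse as a block, and leaving out each array. Fits within a slide and in the lower row were added after seeing the data. The mouse numbers pair 4 HCC with 4 ICC of the same animal. Deviations from the group means correlated at −0.14 to 0.07 in same-mouse pairs and −0.26 to 0.28 in the other 21.

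Promoters came from RefSeq on GRCm38.p6, and 32 of 41 members matched by symbol. Some results of the gene and motif lists are not reported here.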

Additional observations from a re-analysis of the deposited data

Results flagged for a closer look

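For 6 of 123 sets of 5 arrays (41 genes in 3 groups) 1 array lay far from the other 4 by Dixon's test, which chance alone gives in about 1 of 20 sets. C1qc read 2.64 in the p53f/f HCC of mouse 3681, against 3.81 to 4.21 in the other 4. C2 read 6.71 in the p53LKO HCC of mouse 3976, against 5.85 to 6.09. C2 and Proc read 2.84 and 2.38 in the ICC of mouse 3733, against 4.23 to 4.61 and 4.38 to 4.96, in the tumor whose hepatocyte markers were lowest. Cfd read −2.79 in the ICC of mouse 3731, against −5.10 to −4.76, with no ICC array well above background. Proz read 5.69 in the p53LKO HCC of mouse 3731, against 6.70 to 6.98.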

How the results depend on the processing

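Between the HCC groups the calls among the 41 genes (1 higher and 3 lower) depended on the processing. The counts of higher and lower genes were 0 and 4 with quantile normalization and 0 and 10 with scaling to bright probes. Scaling to spike-in probes gave 12 and 1. They were 0 and 1 without a filter on dim probes, with the methods' t-test, with the Mann-Whitney test and with the mean of a gene's probes. With the slide or its row as a block, all 15 arrays in 1 model, 1 mean for mouse 3717 or slide 1 alone they were 0 and 2. The upper row alone gave 0 and 3. Slide 2 with its 1 p53f/f HCC is left out of these counts. Without a fold threshold or with one of 1.5 they were 3 and 6. Leaving out 1 array at a time gave 0 to 2 higher and 1 to 6 lower, with 6 lower without tumor 3716, 5 without tumor 3715 or the HCC of mouse 5283, and 1 without the second tumor of mouse 3717 or the HCC of mouse 3731 or 3975. Normexp, a stricter filter and the authors' table gave 1 and 3.

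In ICC (0 higher and 26 lower), 2 genes were called higher with quantile normalization, scaling to bright probes, a fold threshold of 1.5 or slide 2 alone, and 3 without a fold threshold. Lower genes numbered 15 in the lower row alone and 20 to 28 in the other settings, leaving out slide 1 with its 1 ICC. Leaving out 1 array gave 0 to 2 higher (2 without the HCC of mouse 5283 or 3731 or the ICC of mouse 3731) and 26 to 27 lower. With the mouse as a replicate block 0 were higher and 25 lower, and Cfi was the 1 call that changed.

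Several changes turned sign, none of them called in the comparison in which it turned. Between the HCC groups 19 of 41 genes turned in at least 1 alternative, 11 of them without counting the spike-in and bright-probe scalings, which shift all genes. In that comparison Masp2 was −0.16 with quantile normalization and with scaling to bright probes, −0.039 with the row as a block or the upper row alone, −0.41 with the mean of its probes, −0.10 within slide 2, and −0.0077 to 0.17 when 1 array was left out (below 0 without tumor 3681, at −0.0076, or the HCC of mouse 3976). In ICC Mbl2 was 0.92 with the row as a block or the lower row alone and 1.91 within slide 1, and Fgb was 0.11 with quantile normalization and 0.072 with scaling to bright probes. Within slide 1, Cfp was −0.43, C6 0.43, C8a 0.054, C8b 0.98, Fga 0.085, Fgb 0.021 and Fgg 0.070. C6 was −0.69 to 0.034 when 1 array was left out, the latter without the ICC of mouse 3733. The cause was not tested, and over the 40 genes of the ICC comparison and 16 of the HCC comparison 1379 values kept direction and call, 70 gained and 113 lost a call, and 21 turned sign. Low signal over background kept Cfd out of the ICC comparison and, under the stricter filter, out of the HCC comparison.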

Other observations

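Transcription factors known for driving these genes in hepatocytes were read from a list of 12. In ICC 6 of 11 tested were called lower, against 15.2% of all genes. Hnf4a was among them (−2.03 ± 0.28 on the log2 scale, adjusted p = 0.000396, limma), and Foxa1 (1.02) was called higher. Between the HCC groups 2 of 12 were called higher and 0 lower, against 5.19% and 10.8% of all genes. Of 7 genes of the IL-6 pathway, which drives fibrinogen in the acute phase, 1 was called in ICC (Socs3, 1.65 ± 0.23) and 0 in p53LKO HCC by limma.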
